A study of Mus musculus with 16 samples.

Results

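The Ifitm genes encode small membrane proteins that interferons induce in many cell types and that hinder the entry of enveloped viruses. *Ifitm1*, *Ifitm2*, *Ifitm3* and *Ifitm6* were picked by name, and they are 4 of the 24495 symbols in the deposited tables. Most of the mouse genes of the family lie side by side on chromosome 7. Immune cells differ in which of the genes they use, and activation can switch them on in lymphocytes that otherwise carry little of their RNA.

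MC38, a mouse colon adenocarcinoma line, was grown in C57BL/6 mice that had the transcription factor Aire (*Aire*+/+) or lacked it (*Aire*-/-). Mice received an antibody against the checkpoint receptor PD1 or an isotype control, and tumors and spleens were taken on day 19. Cells from pooled tumors or pooled spleens were sorted as CD45+ or as CD8+ and gave 16 libraries of 3′ UMI counts (UMIs are molecular tags that count each captured RNA molecule once). There was 1 library for each genotype, treatment, tissue and sort, so a difference between conditions within a cell type has no replicate check.

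*Aire* was read first. The CD45+ tumor libraries held 0 *Aire* UMIs in *Aire*+/+ isotype, 2 in *Aire*+/+ anti-PD1, 1 in *Aire*-/- isotype and 0 in *Aire*-/- anti-PD1. The CD8+ tumor libraries held 6, 3, 1 and 0 in that order, the CD45+ spleen libraries 2, 5, 4 and 0, and each CD8+ spleen library 0. These counts are too low to check the genotype labels, and a 3′ tag outside the deleted part would check nothing. Any 2 libraries shared between 2 and 18 barcodes, at most 0.879% of the cells.

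After the cell filter the CD45+ tumor libraries kept 2930, 2208, 1856 and 2075 cells with 38930018, 28760725, 24639380 and 23282801 UMIs, in the order *Aire*+/+ isotype, *Aire*+/+ anti-PD1, *Aire*-/- isotype, *Aire*-/- anti-PD1. All values given in fours keep this order of conditions. The CD8+ tumor libraries kept 2684, 2221, 1858 and 2212 cells with 35163283, 27052446, 22414026 and 23271163 UMIs. Spleen cells were shallower: the CD45+ spleen libraries kept 2095, 2088, 2023 and 2393 cells with 12131829, 10927395, 11179230 and 12618100 UMIs, and the CD8+ spleen libraries 2898, 2944, 2339 and 2629 cells with 20126142, 19167791, 15590033 and 16279428 UMIs.

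Cell types were defined by gates on UMIs per cell, and markers outside the gates served as a check of their names. *Apoe* and 4 other macrophage genes summed to 4493, 5745, 3544 and 2559 UMIs per 1000000 UMIs (CPM) in the tumor macrophage gate and to 1990, 2507, 1662 and 1373 CPM in the tumor monocyte gate. Monocyte genes, *Plac8* above all, summed to 6138, 6707, 7515 and 8053 CPM in tumor monocytes and to 1883, 1803, 2875 and 3718 CPM in tumor macrophages. The macrophage gate of the *Aire*-/- anti-PD1 tumor was therefore the poorest in macrophage markers and the richest in monocyte markers, and it held 188 cells or 9.06% of its library, against 36.5%, 32.2% and 27.2% in the others. Marker sums were 14340 to 20365 CPM for splenic NK cells and 24800 to 27915 CPM for splenic B cells.

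The members differ in place and in level. By RefSeq on GRCm38.p6, *Ifitm2* lies at chr7:140954837-140959686, *Ifitm1* at chr7:140967429-140969827, *Ifitm3* at chr7:141009590-141010744 and *Ifitm6* at chr7:141015812-141016892, each with 1 row in the tables. On the scale of 3′ UMIs, which count molecules and need no correction for gene length, *Ifitm3* made up 67.1%, 69.8%, 63.5% and 58.7% of the members' UMIs in tumor macrophages. In tumor CD8 T cells of the CD8+ sort *Ifitm1* made up 66.3%, 70.7%, 68.7% and 68.9%. *Ifitm3* was the leading member in these macrophages, and *Ifitm1* in these CD8 T cells. UMIs from stretches that the paralogs share may have been lost or misassigned in counting, so shares between members carry that uncertainty.

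**Figure D1:**
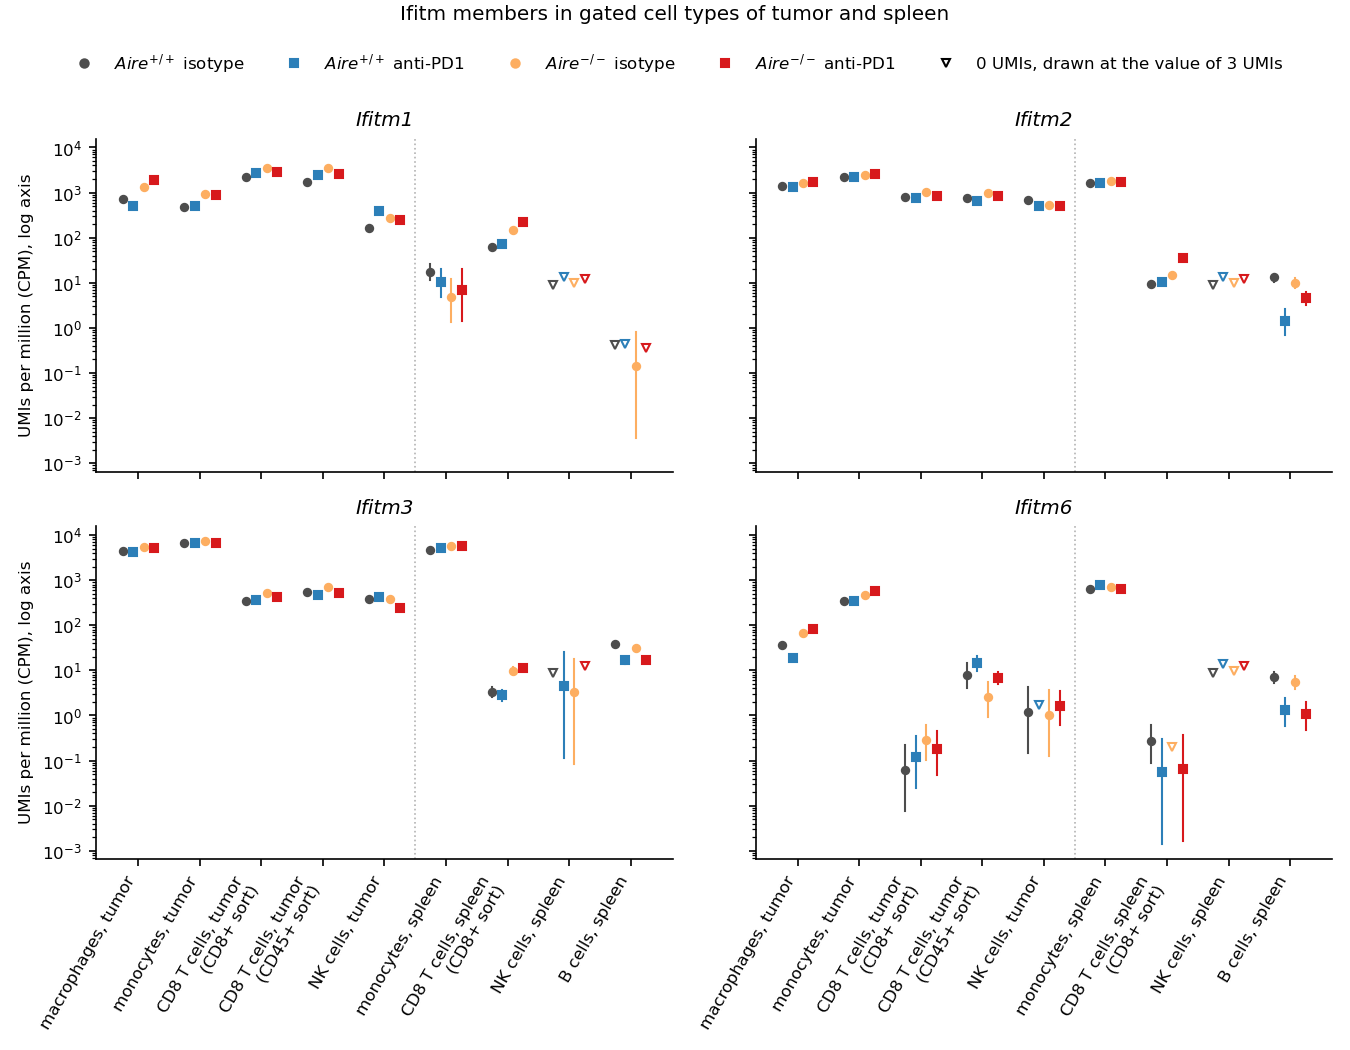
CPM of *Ifitm1*, *Ifitm2*, *Ifitm3* and *Ifitm6* (log axis) in gated cell types of tumor and spleen, 1 point for each condition with its exact Poisson 95% interval, and open triangles for 0 UMIs drawn at the value of 3 UMIs. *Ifitm3* stood between 4272 and 5308 CPM in tumor macrophages, while splenic NK cells gave 0 UMIs of *Ifitm1*, *Ifitm2* and *Ifitm6*.

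Tumor macrophages, the cells with complement C1q RNA, show whether the genotype or the antibody goes with a different level of the family in phagocytes. The members were all present, with *Ifitm3* in nearly every cell and *Ifitm6* in few. *Ifitm1* was at 715.5, 504.4, 1356 and 1865 CPM from 11684, 5484, 10653 and 4226 UMIs. *Ifitm6* was at 36.6, 18.5, 66.2 and 80.8 CPM. Both were higher in each *Aire*-/- library than in either *Aire*+/+ library. *Ifitm2* was at 1401, 1323, 1625 and 1718 CPM and *Ifitm3* at 4391, 4272, 5308 and 5196 CPM, which differed far less.

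Under anti-PD1 *Ifitm1* was 3.70 times as high in *Aire*-/- as in *Aire*+/+ macrophages (95% interval 3.55 to 3.85; this and every interval on counts covers counting error only). *Ifitm6* was 4.37 times as high (3.56 to 5.36). Under isotype the ratios were 1.90 (1.85 to 1.95) for *Ifitm1* and 1.81 (1.6 to 2.04) for *Ifitm6*, both short of 2-fold. *Ifitm2* and *Ifitm3* gave 1.16 and 1.21 under isotype and 1.30 and 1.22 under anti-PD1. Anti-PD1 over isotype gave *Ifitm1* ratios of 0.705 (0.683 to 0.728) in *Aire*+/+ and 1.37 (1.33 to 1.42) in *Aire*-/- macrophages, and *Ifitm6* ratios of 0.505 (0.428 to 0.593) and 1.22 (1.02 to 1.45).

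Of 16 pairs of member and contrast in macrophages, 2 were past 2-fold, both in the genotype contrast under anti-PD1. Both rest on the *Aire*-/- anti-PD1 library, without which 0 are left because the contrast cannot be formed. Among all genes with at least 100 UMIs over a pair, 1.47% were past 2-fold for genotype under isotype and 4.42% under anti-PD1, and 0.315% for antibody in *Aire*+/+ and 1.57% in *Aire*-/-. Thinning cells to 2000 UMIs gave a log2 ratio of 1.08 for *Ifitm6* under anti-PD1, against 2.13 with all UMIs. Over all cells of the libraries, with no gate, the log2 ratios under anti-PD1 were 0.93 for *Ifitm1* and 0.19 for *Ifitm6*, so neither was past 2-fold there.

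Because the macrophage gates differed in their marker levels, tumor cells with at least 10 *Lyz2* UMIs were also split by their C1q count, a choice made after the gate values were seen. With 10 to 49 C1q UMIs *Ifitm1* was at 896.8, 391.2, 1378 and 2121 CPM, and with 50 or more but under 200 it was at 692.6, 708.8, 1308 and 1476 CPM. With 200 or more it was at 597.7, 268.3, 1036 and 1526 CPM, the last from 13 cells. The genotype ratio of *Ifitm1* under anti-PD1 was 0.83 on the log2 scale with 0 C1q UMIs, 1.06 with 1 to 4, 2.44 with 10 to 49 and 1.06 with 50 or more but under 200, and it was not formed in the top range, where 1 library had fewer than 20 cells. Under isotype the same ranges gave 0.92, 0.997, 0.62 and 0.92, and the top range 0.79. Antibody ratios in *Aire*+/+ were -1.20 with 10 to 49 C1q UMIs, 0.0334 in the next range and -1.16 with 200 or more, so they followed no order of C1q. The range of 10 to 49 rested on 101, 65, 70 and 36 cells. *Ifitm6* was lower at the high than at the low end of these ranges in each condition, from 378.8, 389.9, 492.3 and 603 CPM in cells with 0 C1q UMIs to 53.3, 27.0, 70.0 and 58.1 CPM at 50 or more but under 200. The log2 genotype ratio of *Ifitm6* under anti-PD1 was 0.63, 0.81, 1.88 and 1.11 in the ranges given for *Ifitm1*, against 2.13 in the gate. Under isotype these were 0.38, 0.78, 0.66 and 0.39, and 1.63 in the top range, against 0.85 in the gate.

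**Figure D2:**
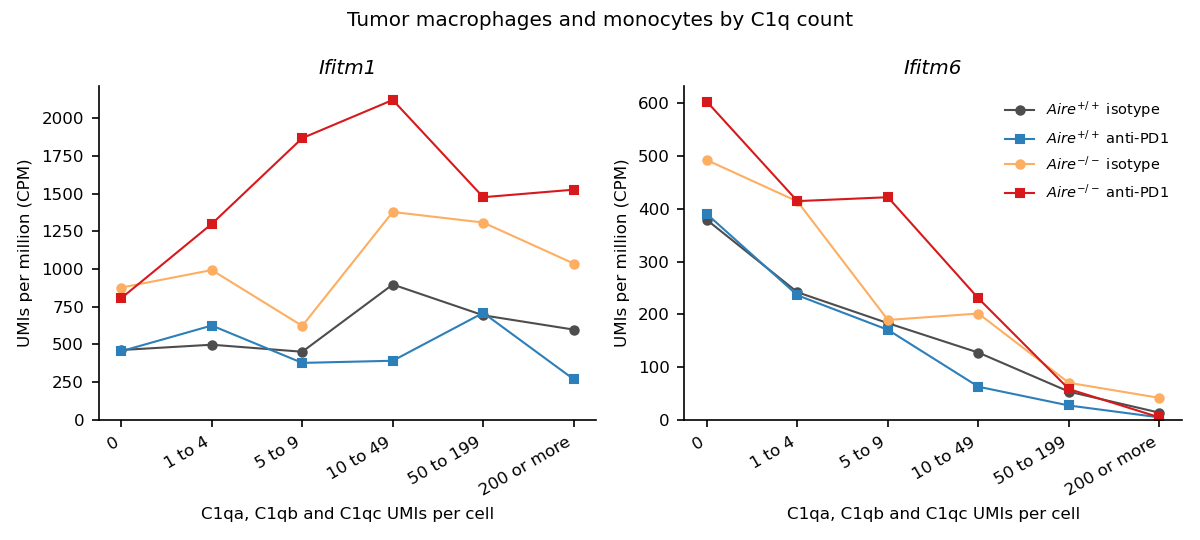
CPM of *Ifitm1* and *Ifitm6* in tumor cells with at least 10 *Lyz2* UMIs, by range of C1q UMIs per cell, with 1 line for each condition and no error bars; the range of 5 to 9 held 31, 25, 15 and 14 cells. In cells with 0 C1q UMIs *Ifitm1* stood at 876.4 and 806.4 CPM in *Aire*-/- and at 462.4 and 454.6 CPM in *Aire*+/+.

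The share of macrophages with an *Ifitm1* UMI, each cell thinned to 2000 UMIs, was 38.2%, 33.1%, 56.6% and 69.1%, and 61.3%, 56.3%, 78.6% and 84.0% without thinning. Thinning left out no macrophage. In tumor NK cells of the same libraries the thinned share was 7.27%, 6.87%, 7.01% and 5.09%, with median depths of 10174.5, 8764, 9209 and 9231 UMIs against 14212.5, 14563, 13836 and 11488.5 in macrophages. *Ifitm3* gave 97.8%, 98.6%, 98.6% and 97.9% of macrophages, and *Ifitm6* 6.46%, 3.93%, 8.71% and 8.51%. In tumor NK cells *Ifitm3* was found in 22.7%, 19.8%, 19.7% and 16% and *Ifitm6* in 0%, 0%, 0% and 0.364%. The macrophage shares lay above those of NK cells in the same libraries, and free RNA was not measured apart from cells.

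Monocytes enter tumors from the blood and can become macrophages, and in the spleen they can be read outside the tumor. The monocyte gate allowed at most 4 C1q UMIs in a cell. In the tumor *Ifitm1* was at 469.9, 498.4, 912.9 and 896.6 CPM, again higher in each *Aire*-/- library. *Ifitm2* was at 2186, 2237, 2508 and 2604 CPM, *Ifitm3* at 6739, 6765, 7229 and 6835 CPM, and *Ifitm6* at 351.9, 353.6, 471.6 and 577.5 CPM. The other 3 members were also higher in both *Aire*-/- libraries, by less, and the log2 ratio of *Ifitm3* under anti-PD1 was 0.0147 (-0.00754 to 0.037). The genotype ratio of *Ifitm1* was 1.94 (1.87 to 2.02) in the isotype pair and 1.80 (1.71 to 1.89) in the anti-PD1 pair. That of *Ifitm6* was 1.34 (1.27 to 1.41) and 1.63 (1.54 to 1.73). The antibody ratio of *Ifitm1* was 1.06 in *Aire*+/+ and 0.982 in *Aire*-/-.

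Of 16 pairs of member and contrast, 0 were past 2-fold in tumor monocytes, and 1 was with TMM-scaled totals or with the gate minimums doubled. Among all genes the shares were 1.38% and 2.7% for genotype under isotype and anti-PD1, and 0.549% and 0.679% for antibody in *Aire*+/+ and *Aire*-/-. The thinned share of tumor monocytes with an *Ifitm1* UMI was 29.7%, 29.3%, 41.6% and 40.8%, and 51.3%, 52.5%, 66.8% and 57.8% without thinning. *Ifitm3* was found in 99.5%, 99.4%, 100% and 100% of thinned tumor monocytes.

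Splenic monocytes carried the family with little *Ifitm1*. They gave 25, 9, 4 and 3 *Ifitm1* UMIs, or 17.5, 10.6, 4.86 and 6.89 CPM. *Ifitm3* was at 4771, 5221, 5598 and 5797 CPM and *Ifitm6* at 637.8, 776.4, 702.1 and 647.5 CPM, above each tumor monocyte library. *Ifitm2* was at 1608, 1651, 1779 and 1740 CPM. The genotype ratios of *Ifitm3* were 1.17 and 1.11, those of *Ifitm6* 1.10 and 0.834, and those of *Ifitm2* 1.11 and 1.05. Of 12 pairs 0 were past 2-fold, and 2 were over all cells with no gate, against 0.365% and 0.698% of all genes for genotype and 0.52% and 0.558% for antibody.

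Tumor and spleen monocytes were then compared with edgeR's quasi-likelihood test, pairing the tissues within each of the 4 conditions. *Ifitm1* rose in the tumor in 4 of 4 conditions by 6.17 ± 0.25 on the log2 scale (SE; edgeR, Benjamini-Hochberg adjusted p = 2.06e-12). *Ifitm2* and *Ifitm3* also rose in 4 of 4 conditions, by 0.88 ± 0.09 (edgeR, adjusted p = 2.02e-07) and 0.76 ± 0.08 (adjusted p = 5e-07). *Ifitm6* had a log2 value of -0.31 ± 0.13, which missed the threshold (edgeR, adjusted p = 0.0582). It was lower in the tumor in 3 of 4 conditions on the TMM scale of the test, with *Aire*-/- anti-PD1 at 0.28, and in 4 of 4 on total UMIs. It passed without the *Aire*-/- anti-PD1 condition, at -0.47 (adjusted p = 0.000273, with adjusted p from 0.000273 to 0.436 over all alternatives). Of the 4 members 3 were called higher in the tumor by this test, as were 27.4% of the genes tested. On UMIs summed over the 4 libraries the tumor to spleen ratio was 56.1 (41.3 to 78.2) for *Ifitm1*, 1.40 (1.36 to 1.44) for *Ifitm2*, 1.32 (1.30 to 1.34) for *Ifitm3* and 0.606 (0.580 to 0.634) for *Ifitm6*. Of the 41 splenic *Ifitm1* UMIs 25 came from *Aire*+/+ isotype. By condition the log2 ratio of *Ifitm1* ran from 4.75 to 7.55 on total UMIs. The TMM scaling of the edgeR test added 0.39 to each log2 ratio in this comparison, where the median of all genes tested was -0.39 on total UMIs. Over the 4 conditions together no member changed direction between the scalings, though *Ifitm6* did in *Aire*-/- anti-PD1. It added 0.37 for NK cells between tissues and -0.17 for macrophages over monocytes.

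The monocyte gates differed in make-up between the tissues. Monocytes with *Ace* or *Treml4* and no *Ly6c2* were 39, 15, 15 and 11 of 750, 484, 473 and 365 tumor monocytes, and 57, 44, 34 and 30 of 159, 109, 101 and 60 splenic ones. Among monocytes with *Ly6c2* and neither of these genes, *Ifitm1* was at 554 to 1139 CPM in the 4 tumor libraries and at 4.72 to 8.82 CPM in the 3 spleen libraries with at least 20 such cells. *Ifitm6* was at 323.9 to 566.6 CPM and 720.3 to 807.4 CPM in them. In these cells, too, *Ifitm1* was higher and *Ifitm6* lower in each tumor library than in any of those spleen libraries, and *Ifitm2* stood at 2182 to 2637 CPM in tumors and 1600 to 1928 CPM in spleens.

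Macrophages and monocytes of the same tumor libraries were compared in the same way, with the library as the block. *Ifitm6* was lower in macrophages by a log2 value of -3.45 ± 0.18 (edgeR, adjusted p = 1.27e-08). *Ifitm2* and *Ifitm3* were lower too, at -0.83 ± 0.06 (edgeR, adjusted p = 4.1e-07) and -0.70 ± 0.07 (adjusted p = 4.96e-06). These 3 were lower in 4 of 4 libraries. *Ifitm1* was higher by 0.39 ± 0.12 (edgeR, adjusted p = 0.0173), in 3 of 4 libraries on the TMM scale, with *Aire*+/+ anti-PD1 at -0.16, and in 4 of 4 on total UMIs. That call ended without *Aire*+/+ isotype (0.38, adjusted p = 0.0636), without *Aire*-/- isotype (0.40, adjusted p = 0.0505) or without *Aire*-/- anti-PD1 (0.20, adjusted p = 0.0767), with adjusted p from 2.77e-06 to 0.33 over all alternatives. In all, 1 of 4 members was called higher and 3 lower, where 27% of all genes tested were called higher and 27% lower.

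Neutrophils reached 20 cells in only 3 libraries. In the *Aire*+/+ isotype and anti-PD1 tumors, with 20 and 22 cells, *Ifitm1* was at 1413 and 1383 CPM and *Ifitm3* at 4714 and 5154 CPM. In the *Aire*+/+ isotype spleen, with 23 cells, *Ifitm1* was at 2065, *Ifitm2* at 2532, *Ifitm3* at 1169 and *Ifitm6* at 999.9 CPM. These tumor cells carried 50697 and 38759 CPM of *Cxcl2* and 0 CPM of *Camp*, and the splenic cells 14894 CPM of *Camp*, so cells in the gate differed in their markers between the tissues. No genotype contrast was possible.

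CD8 T cells are the main target of PD1 blockade, and they were sorted on their own, which gave the gate with the most UMIs in total. In tumors *Ifitm1* was at 2242, 2688, 3431 and 2835 CPM in the CD8+ sort. *Ifitm2* was at 800, 744.2, 1030 and 858.9 CPM and *Ifitm3* at 336.8, 371.3, 531.8 and 418.7 CPM. *Ifitm6* gave 2, 3, 6 and 4 UMIs. The 3 expressed members were highest in the *Aire*-/- isotype library. Genotype ratios under isotype were 1.53 (1.51 to 1.55) for *Ifitm1*, 1.29 for *Ifitm2* and 1.58 (1.54 to 1.62) for *Ifitm3*, and under anti-PD1 1.05, 1.15 and 1.13. Antibody ratios of *Ifitm1* were 1.20 in *Aire*+/+ and 0.826 in *Aire*-/-.

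In this sort 0 of 12 pairs were past 2-fold, against 0.847% and 0.776% of all genes for genotype under isotype and anti-PD1 and 0.409% and 0.321% for antibody. The CD45+ sort gave tumor CD8 T cells from separate libraries, between 122 and 691 of them. There *Ifitm1* was at 1736, 2404, 3523 and 2618 CPM, with the conditions in the same order from low to high. Its genotype ratio under isotype was 2.03 (1.94 to 2.13), the only 1 of 12 pairs past 2-fold. With TMM-scaled totals its log2 ratio was 0.99, with thinned cells 0.92, without *Lyz2*-bearing cells 0.88 and with doubled gate minimums 0.96, each short of 2-fold. With the deepest 5% of cells left out it was 1.17, past 2-fold. The shares of all genes were 0.861% and 1.23% for genotype and 1.3% and 0.801% for antibody.

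The share of thinned tumor CD8 T cells of the CD8+ sort with an *Ifitm1* UMI was 54.3%, 59.0%, 62.6% and 55.2%, and 60%, 66.1%, 67.7% and 60.8% without thinning. *Ifitm2* reached 52.6%, 52.1%, 58.6% and 51.5%, and *Ifitm3* 28.4%, 30.3%, 39.4% and 30%. Among cells with an *Ifitm1* UMI 73.8%, 70.9%, 80.9% and 72.6% also had *Ifitm2*, against 27.3%, 25.0%, 21.4% and 25.6% of cells without. *Ifitm3* was in 38.6%, 39.3%, 52.8% and 40.3% of the *Ifitm1* cells and in 16.2%, 17.4%, 16.9% and 17.4% of the others. CD8 T cells of the CD45+ tumor libraries with 0 *Lyz2* UMIs held *Ifitm3* at 370.9, 362.0, 554.4 and 423.3 CPM, against 543.7, 467.3, 719.3 and 523.4 CPM in all of them, lower in each library. Their 11, 30, 6 and 50 *Ifitm6* UMIs became 0, 0, 0 and 5.

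Splenic CD8 T cells show the lymphocytes outside the tumor, where most are resting. *Ifitm1* was at 61.6, 71.7, 145.4 and 221.4 CPM in the CD8+ sort, from 1160, 1299, 2186 and 3416 UMIs. *Ifitm2* was at 9.30, 10.2, 14.8 and 34.8 CPM, and *Ifitm3* at 3.29, 2.82, 9.91 and 11.1 CPM. All 3 were higher in each *Aire*-/- library of this sort than in either *Aire*+/+ library. The CD45+ spleen libraries, with 134, 146, 149 and 177 such cells and few UMIs of the members, did not repeat this order. There *Ifitm1* was at 0, 102.5, 98.2 and 7.86 CPM, *Ifitm2* at 21.2, 19.6, 5.95 and 0.873 CPM and *Ifitm3* at 94.9, 1.09, 2.98 and 1.75 CPM. The genotype ratios of *Ifitm1* were 2.36 (2.2 to 2.54) in the isotype pair and 3.09 (2.90 to 3.29) in the anti-PD1 pair. Those of *Ifitm2* were 1.59 (1.30 to 1.95) and 3.41 (2.88 to 4.05), and those of *Ifitm3* 3.01 (2.22 to 4.12) and 3.94 (2.86 to 5.49). In *Aire*-/- spleens anti-PD1 over isotype gave 1.52 (1.44 to 1.61) for *Ifitm1* and 2.36 (2.01 to 2.77) for *Ifitm2*. The *Ifitm2* value was 1.24 on the log2 scale, and it fell short of 2-fold with thinned cells (0.994) and with the mean of per-cell CPM (0.906).

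Of 12 pairs 6 were past 2-fold, all higher, against 1.21% and 1.39% of all genes for genotype under isotype and anti-PD1 and 0.327% and 0.255% for antibody. Over all cells of the sort, with no gate, the log2 genotype ratio of *Ifitm3* under isotype was 0.055, against 1.59 in the gate. Under anti-PD1 it was 1.27 with no gate and 2.61 with thinned cells, against 1.98. With the deepest 5% of cells left out, the log2 genotype ratios of *Ifitm1* were 1.41 under isotype and 1.14 under anti-PD1, against 1.24 and 1.63. The level came from few cells: *Ifitm1* was found in 1.01%, 1.11%, 2.22% and 2.85% of thinned cells and in 1.19%, 1.17%, 2.43% and 3.03% of unthinned ones. The intervals of the *Ifitm1* ratios, which cover counting error only, thus understate their error. Splenic B cells had 0%, 0%, 0.0758% and 0% thinned at median depths of 4237, 4163, 4468.5 and 4288 UMIs, with 1382, 1388, 1320 and 1688 of 1392, 1439, 1338 and 1703 cells deep enough. The medians of the CD8+ spleen libraries were 6405, 6304.5, 6282 and 5801 UMIs.

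Splitting these cells by *Gzma*, a granzyme of effector cells chosen after values were seen, showed where the *Ifitm1* UMIs lay. Of the thinned cells 52, 55, 176 and 148 had a *Gzma* UMI and 2719, 2733, 2078 and 2344 had none. *Ifitm1* was at 1923, 2664, 1841 and 2659 CPM in cells with *Gzma* and at 24.6, 26.0, 30.8 and 50.1 CPM in cells without. Within the *Gzma* cells the genotypes overlapped, and the number of *Gzma* cells was higher in each *Aire*-/- spleen. In cells without *Gzma* both *Aire*-/- libraries were higher. *Aire*-/- isotype, at 30.8 CPM, lay near *Aire*+/+ anti-PD1, at 26.0 CPM, and no interval is given.

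**Figure D3:**
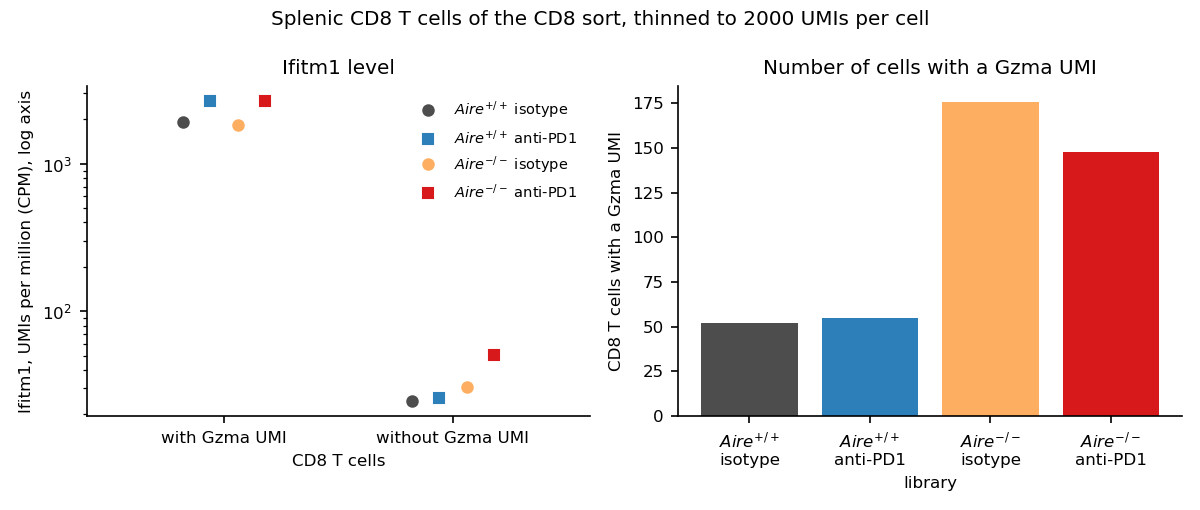
CPM of *Ifitm1* (log axis) in splenic CD8 T cells of the CD8+ sort with and without a *Gzma* UMI, and the number of cells with one, each cell thinned to 2000 UMIs and 1 library for each condition. The cells with *Gzma* numbered 52 and 55 in *Aire*+/+ and 176 and 148 in *Aire*-/- spleens.

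Tumor and spleen CD8 T cells were compared across the 4 conditions, to ask which members differ between the gates of the tissues. The make-up of these gates was not matched, and splenic cells with *Gzma* held far more *Ifitm1* than the splenic gate as a whole. Entry into the tumor was not tested. In the CD8+ sort *Ifitm1* rose in the tumor by 4.58 ± 0.26 on the log2 scale (edgeR, adjusted p = 2.41e-06), *Ifitm2* by 5.71 ± 0.30 (adjusted p = 1.7e-06) and *Ifitm3* by 5.97 ± 0.26 (adjusted p = 6.43e-07). Each was higher in 4 of 4 conditions. The ratios on summed UMIs were 22.9 (22.4 to 23.4), 51.0 (48.1 to 54.2) and 62.9 (57.2 to 69.3). *Ifitm6* had 1.43 (0.55 to 4.16), so a difference was not detectable at this depth. The 3 of 4 members that passed the low-count filter were all called higher, against 37.6% of genes tested.

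The splenic side of the CD45+ sort was thin. *Ifitm1* gave 0, 94, 99 and 9 UMIs, and 1 cell held 93.6% of the 94. *Ifitm2* gave 19, 18, 6 and 1 UMIs and *Ifitm3* 85, 1, 3 and 2, and of those 85 UMIs 83 lay in cells with at least 10 *Lyz2* UMIs. The tumor to spleen ratios on summed UMIs were 52.2 (45.4 to 60.2) for *Ifitm1*, 74.9 (55.8 to 103) for *Ifitm2* and 24.1 (19.6 to 29.9) for *Ifitm3*. In cells with 0 *Lyz2* UMIs they were 51.4 (44.8 to 59.3), 133 (89 to 207) and 281 (129 to 765) in that order. The members entered the edgeR test through the tumor libraries and had to differ, so its p-values are not given. Of all genes tested 28.1% were called higher in this sort.

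NK cells are lymphocytes of innate immunity and share granzymes with CD8 T cells, so they show whether the family goes with lineage or with the tumor. In tumors *Ifitm2* was at 695.5, 515.9, 524.6 and 503.6 CPM and *Ifitm3* at 384.5, 430.5, 386.1 and 242.9 CPM. *Ifitm1* was at 166.7, 386.1, 274.6 and 244 CPM, from 281, 669, 527 and 890 UMIs. The top 10% of cells held 98.9%, 99.6%, 98.9% and 100% of them, and the highest single cell 29.9%, 34.8%, 24.7% and 14.2%. *Ifitm1* thus came from a handful of NK cells in each library, and its intervals understate its error.

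The genotype ratio of *Ifitm1* in tumor NK cells was 1.65 (1.42 to 1.91) in the isotype pair and 0.632 (0.571 to 0.7) in the anti-PD1 pair. Its antibody ratio in *Aire*+/+ was 2.32 (2.01 to 2.67), the only 1 of 12 pairs past 2-fold. On the log2 scale that ratio was 1.21, with thinned cells 0.81, with doubled gate minimums 0.60 and with no gate -0.0691. With the deepest 5% of cells left out it was 1.65. Among all genes 1.93% and 0.976% were past 2-fold for genotype and 0.843% and 0.777% for antibody. *Ifitm2* gave genotype ratios of 0.754 and 0.976, and *Ifitm3* 1 and 0.564.

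In the spleen 84, 49, 59 and 54 NK cells gave 0 UMIs of *Ifitm1*, *Ifitm2* and *Ifitm6* in 1109643 UMIs, and 0, 1, 1 and 0 UMIs of *Ifitm3*. Against a floor of 3 UMIs over the 4 spleen libraries, *Ifitm1* was at least 97.4-fold and *Ifitm2* at least 202-fold higher in tumor NK cells, with 95% lower limits of 79.2 and 164 when the counting error of both tissues is taken in. The ratio of *Ifitm3* was 187 (51.6 to 1541), and all 3 were higher in 4 of 4 conditions. These 3 members passed the low-count filter through the tumor libraries alone, so they had to differ in the edgeR test and its p-values are not given. Of all genes tested 22.2% were called higher. Thinned shares in tumor NK cells were 23.6%, 19.8%, 16.6% and 15.3% for *Ifitm2*, against 0% in 78, 49, 58 and 54 splenic NK cells with median depths of 3727, 3988, 4358 and 4237 UMIs.

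Within the tumor, NK cells held less *Ifitm1* than CD8 T cells of the same libraries, at -3.26 ± 0.13 on the log2 scale (edgeR, adjusted p = 8.74e-09, lower in 4 of 4 libraries). *Ifitm2* was at -0.51 ± 0.11 (edgeR, adjusted p = 0.00333) and at -1.52 with thinned cells (adjusted p = 4.12e-11, with adjusted p from 4.12e-11 to 0.0228 over all alternatives). *Ifitm3* was at -0.64 ± 0.12 (edgeR, adjusted p = 0.00198), at -1.18 with thinned cells and at -0.30 in cells with 0 *Lyz2* UMIs (adjusted p = 0.159, the highest over its alternatives, of which the lowest was 1.58e-13). The 3 members tested were lower in 4 of 4 libraries. All 3 passed the edgeR threshold as lower, as did 14.9% of genes tested. In the spleen none of the members passed the filter for this comparison.

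Splenic B cells carried little RNA of the members, and free RNA was not told apart from their own. *Ifitm1* had 0, 0, 1 and 0 UMIs. *Ifitm3* had 278, 114, 212 and 146 UMIs, or 38.4, 16.6, 30.8 and 17.2 CPM, and 224, 45, 179 and 98 of these UMIs lay in 6, 2, 5 and 2 cells with at least 10 *Lyz2* UMIs. In B cells with 0 *Lyz2* UMIs *Ifitm3* was at 7.30, 7.67, 4.75 and 5.72 CPM. Most *Ifitm3* UMIs of the gate lay in these few cells in 3 of the 4 libraries, all but *Aire*+/+ anti-PD1.

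The remaining Ifitm symbols followed other patterns. *Ifitm10* was at 257.3 to 363 CPM in splenic NK cells and at 35.2 to 57.8 CPM in tumor NK cells, the reverse of *Ifitm1* to *Ifitm3*. It was at 43.2 to 51.1 CPM in splenic and 23.0 to 33.7 CPM in tumor CD8 T cells of the CD8+ sort, and at 0 in monocytes. *Ifitm5* and *Ifitm7* were at 0.804 and 1.16 CPM over all CD45+ tumor cells with the libraries pooled. *Ifitm7* was at 2.43 to 4.59 CPM in splenic monocytes, from 13 UMIs.

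Over 43 sums of a gate and library, which share libraries and are not independent, log2 levels of *Ifitm2* and *Ifitm3* had a Pearson r of 0.954, and *Ifitm1* and *Ifitm6* one of 0.126. The genes most like *Ifitm1* were *Ldha* (0.866), *AA467197* (0.859) and *Glrx* (0.856). Those most like *Ifitm6* were *Hp* (0.994), *Mgst1* (0.990) and *Gda* (0.979). *Nr4a1* (0.928), *Lilrb4a* (0.927) and *Lgals3* (0.927) were most like *Ifitm2*, and *Adssl1* (0.955), *Hk2* (0.947) and *Rnf19b* (0.947) most like *Ifitm3*.

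A list of 54 other interferon-induced genes was set beside the family. In macrophages 6 were at least 2-fold higher and 0 lower in *Aire*-/- under isotype, and 8 higher and 0 lower under anti-PD1, where 84 of 8686 and 118 of 7497 genes were higher. The median log2 ratios of the list were 0.65 and 0.34, against -0.037 and -0.0986 for all genes. Its most abundant gene under isotype, *Isg15*, was at 3296 CPM in *Aire*-/- and 2008 in *Aire*+/+, and *Cxcl9* at 571.4 and 175.8. In tumor monocytes 5 and 4 were higher and 0 lower, where 51 of 7236 and 59 of 6305 genes were higher, with medians of 0.42 and -0.0254. In splenic CD8 T cells, where 6 member ratios were past 2-fold, 0 of 48 list genes were higher in *Aire*-/- under isotype and 1 of 48 under anti-PD1, where 90 of 9093 and 96 of 9105 genes were, with medians of 0.0403 and 0.0771, and 0 of 47 were higher with anti-PD1 in *Aire*-/-. In tumor NK cells 8 of 40 were higher and 0 lower under isotype, where 40 of 4036 genes were higher, and 0 of 46 were higher and 1 lower under anti-PD1, where 28 of 5224 genes were higher.

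Between tissues, 42 of 53 list genes tested were called higher and 4 lower in tumor CD8 T cells of the CD8+ sort by edgeR, where 37.6% of all genes were called higher. In tumor monocytes 53 of 54 were called higher, against 27.4% of all genes. In tumor NK cells 33 of 47 were called higher and 2 lower, against 22.2% of all genes higher, and in tumor CD8 T cells of the CD45+ sort 41 of 51 higher and 3 lower, against 28.1% higher. In each of these tests between tissues, genes that passed the low-count filter through the tumor libraries alone had to differ. They were not counted apart, in the list or among all genes. All 54 list genes were tested in monocytes. In splenic monocytes only 21 to 28 of them had enough UMIs for a ratio between conditions. The 53 calls in monocytes may thus include genes that had to differ. In NK over CD8 T cells of the tumor 5 of 52 were called higher and 35 lower, against 14.9% of all genes lower. In macrophages over monocytes 3 of 54 were called higher and 49 lower, against 27% of all genes each way, with *Cxcl10* at -1.38 and *Isg15* at -0.63 on the log2 scale.

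Promoters of 300 bases, 250 before the start, were read on both strands for paired GAAA half-sites (GAAANNGAAA, the core of the interferon-stimulated response element) and for TTCNNNGAA (the gamma-activated site). Of 32851 promoters 3.44% matched the first and 8.3% the second. The promoter table gives 1 start for each member, and those of *Ifitm1* and *Ifitm2* lie inside the gene spans given above, so other starts of these genes were not read. At these starts *Ifitm2* had 1 match to the first, *Ifitm3* had 2 to the first and 1 to the second, *Ifitm6* had 1 to the second and *Ifitm1* had 0 of either. A match describes the sequence only. The stretch at chr7:140955988-140956211, from the promoter of this internal start of *Ifitm2* on the minus strand in RefSeq GRCm38.p6, reads as follows, with the match in capitals. The stretch at chr7:140967826-140968027, from the promoter of the internal start of *Ifitm1* on the plus strand, comes after it.

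Ifitm2: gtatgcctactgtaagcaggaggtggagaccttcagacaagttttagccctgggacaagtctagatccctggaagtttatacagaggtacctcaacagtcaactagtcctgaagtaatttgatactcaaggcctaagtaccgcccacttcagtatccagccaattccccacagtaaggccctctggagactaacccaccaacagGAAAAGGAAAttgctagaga

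Ifitm1: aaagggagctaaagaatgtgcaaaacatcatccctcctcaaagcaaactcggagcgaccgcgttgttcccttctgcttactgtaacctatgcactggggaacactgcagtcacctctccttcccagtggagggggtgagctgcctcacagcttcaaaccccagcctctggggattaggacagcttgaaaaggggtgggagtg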

How the data were processed

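The authors deposited UMI counts per gene and barcode for 16 libraries of a 3′ kit, counted on GRCm38 with Cell Ranger and not normalized. The labels name the 3′ kit. The paper names it too, but its paragraph with the Cell Ranger version names a kit that tags the other RNA end. The labels were followed, and the tagged end was not tested. Barcodes with under 200 genes or over 20% mitochondrial UMIs were removed (156 of 37609). Cells were gated by C1q (at least 10 UMIs, macrophages), *Lyz2* (10, with 2 of *Csf1r*, *Ccr2* and *Cx3cr1*, monocytes), Cd3 and Cd8 (2 each), NK genes (2), B cell genes (3) or *S100a8* and *S100a9* (20, neutrophils). All gates but that of macrophages allowed at most 4 C1q UMIs, and each needed at least 20 cells. From the deposited counts CPM, ratios with conditional exact intervals and percentages with Clopper-Pearson intervals were computed (Python 3.11.15, numpy 2.4.6, scipy 1.17.1, pandas 2.3.3). Summed UMIs were tested with edgeR 4.0.16 in R 4.3.3 (quasi-likelihood, TMM, low-count filter, condition or library as block, Benjamini-Hochberg, threshold 0.05), which was tested on simulated data. Alternatives were DESeq2 1.42.0, no filter, no block, leave-one-out, doubled gate minimums, thinning, per-cell means, TMM totals, no cell filter, no gate and 20 UMIs over a pair. Doublets were not called, and leaving out cells above the 95th percentile of UMIs stood in for that. C1q ranges, cells with 0 *Lyz2* UMIs and leaving out *Aire*-/- anti-PD1 in macrophages were chosen after seeing the data. Named were the members, other Ifitm symbols, the 3 genes most like each member, and from the interferon list the most abundant and most different. Members and lists were chosen with earlier results of these data known. P-values measure only the spread between these conditions, which may be technical.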

Additional observations from a re-analysis of the deposited data

Results flagged for a closer look

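For *Ifitm1* and *Ifitm6*, some log2 ratios pointed opposite ways in the groups compared. The difference was not tested in any of these cases, since each ratio rests on 1 library per condition. In tumor macrophages anti-PD1 over isotype gave -0.50 in *Aire*+/+ and 0.46 in *Aire*-/- for *Ifitm1*, and -0.99 and 0.29 for *Ifitm6*. Among cells with 50 or more but under 200 C1q UMIs the signs did not differ: *Ifitm1* gave 0.0334 and 0.17, and *Ifitm6* gave -0.98 and -0.27. With 10 to 49 they did, at -1.20 and 0.62 for *Ifitm1* and -1.02 and 0.19 for *Ifitm6*. In tumor CD8 T cells the same ratio of *Ifitm1* was 0.47 and -0.43 in the CD45+ sort and 0.26 and -0.28 in the CD8+ sort. In tumor NK cells *Aire*-/- over *Aire*+/+ gave 0.72 under isotype and -0.66 under anti-PD1 for *Ifitm1*, with nearly all UMIs in the top 10% of cells.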

How the results depend on the processing

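Of the alternative values of member ratios, 455 stayed within their counting interval, 236 moved beyond it and 1 reversed: *Ifitm1* in tumor NK cells, anti-PD1 over isotype in *Aire*+/+, was -0.0691 with no gate. Pairs of member and contrast past 2-fold numbered 0 in place of 1 for tumor CD8 T cells of the CD45+ sort with TMM totals, thinned cells, 0 *Lyz2* UMIs, doubled minimums, per-cell means and no gate, and 0 in place of 1 for NK cells with thinned cells, doubled minimums and no gate. For macrophages they numbered 4 with 10 to 49 C1q UMIs, and 0 with no gate, in place of 2. They numbered 0 without *Aire*-/- anti-PD1 too, but leaving it out removes the contrast that held both. For tumor monocytes they numbered 1 with TMM totals and doubled minimums, and for spleen monocytes 2 with no gate, in place of 0.

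Of the alternative tests of members 185 kept their direction and side of the threshold, among them those of members scarce in splenic NK cells and splenic CD8 T cells of the CD45+ sort, which could not have failed. *Ifitm1* in macrophages over monocytes lost its call on leave-one-out (0.20 to 0.58 on the log2 scale; without *Aire*+/+ isotype 0.38, adjusted p = 0.0636; without *Aire*-/- isotype 0.40, adjusted p = 0.0505; without *Aire*-/- anti-PD1 0.20, adjusted p = 0.0767) and with no block (0.51, adjusted p = 0.33). *Ifitm3* in NK over CD8 T cells lost it with 0 *Lyz2* UMIs (-0.30, adjusted p = 0.159). *Ifitm6* in tumor over spleen monocytes gained one without *Aire*-/- anti-PD1 (-0.47, adjusted p = 0.000273; leave-one-out range -0.47 to -0.14) and with no low-count filter (-0.24, adjusted p = 0.0465). These are edgeR tests with Benjamini-Hochberg adjustment, and the cause was not tested.

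Genes called over the whole table fell with thinned cells to 1089 for NK over CD8 T cells in the spleen, 968 in the tumor, 2295 for macrophages over monocytes, and for tumor over spleen 1758 in CD8 T cells of the CD45+ sort, 1045 in NK cells and 2257 in monocytes. With DESeq2 they were 1332 and 1535 for NK over CD8 T cells in spleen and tumor and 1962 for NK cells between tissues. Leave-one-out gave 1653 to 2447 for NK over CD8 T cells in the tumor. The cause was not tested.

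No paired analysis by replicate was possible because the labels carry no replicate numbers, so pairs were formed by condition between tissues and by library between cell types. With 1 library per condition, genotype and antibody cannot be told apart from the library in any ratio, mice were pooled, and the knockout was not readable from *Aire*. Free RNA and doublets were not modelled, splenic cells were shallower than tumor cells, and gates held different cells in different conditions. For flow cytometry the paper dissociated tumors with enzymes and spleens mechanically. If the libraries were prepared in the same way, tissue cannot be told apart from preparation in any tumor over spleen comparison. Whether the share of *Gzma* cells accounts for the splenic *Ifitm1* ratio was not tested.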
